A study of Mus musculus with 46 samples.

Results

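Bile acids were measured by untargeted metabolomics in kidney, liver and serum of wild-type C57BL/6 mice at 12 weeks and 18 months of age. The members are all compounds whose name, given by the authors from the fragment spectrum, contains "cholic" or "cholan". They make 70 entries under 20 names, among 5762 compound entries in the 6 metabolite tables. The tables hold 10 bile acids in 12-week kidney, 8 in 12-week liver, 12 in 12-week serum, 13 in 18-month kidney, 12 in 18-month liver and 15 in 18-month serum. All 20 names are bile acids or their conjugates. They comprise 6 taurine conjugates, 3 glycine conjugates and 11 free acids, which account for 19, 13 and 38 entries.

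The 3 arms were males castrated at 8 weeks of age, males sham operated at that age, and sham-operated females. All mice had the same wild-type genotype and were fed normal chow in a pathogen-free facility. Each table holds 1 mean relative abundance per arm, on a scale that is not given and that differs between tables. The number of animals behind a mean and the spread between them do not appear in the labels or headers, so no difference between bile acids was tested and no error can be given. A compound is counted as past the limit when its group mean was at least 2-fold above or below the sham male mean, and that count is set beside the share of all compounds of the same table. Levels of different bile acids are not comparable with each other, since each ion responds differently, and neither are levels between tables. Names rest on spectra, and isomers that share an elemental formula, such as chenodeoxycholic, deoxycholic, ursodeoxycholic and isohyodeoxycholic acid, can be confused in such data. Whether they were told apart was not tested.

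Bile acids are made from cholesterol in the liver and joined to an amino acid, which in mice is almost always taurine. The conjugates are secreted into bile, taken back up by the intestine and returned to the liver through the portal blood, and what the liver does not extract appears in serum and is filtered by the kidney. Gut bacteria remove the amino acid, which gives free acids, and change the ring hydroxyl groups, which turns primary acids such as cholic acid into secondary acids such as deoxycholic acid. The series set castration beside sex in ageing mice, and the comparisons are castrated males with sham males and sham females with sham males. Both use the same sham male mean.

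Taurine conjugates held most of the large differences between castrated and sham males. Over the 6 tables, 9 of their 19 entries were past the limit upward and 2 downward, against 6 upward and 1 downward of 38 entries of free acids. Of all 5762 compound entries, 7.13% were past it upward and 4.89% downward, 12.0% together. Without the lowest 25% of compounds by level, the 7 free entries past the limit were 4. None of the 13 entries of glycine conjugates was past it, and their log2 ratios lay between -0.41 and 0.22. The log2 ratios of taurine conjugates ran from -1.31 to 2.35 with a median of 0.72, and those of free acids from -1.08 to 2.53 with a median of 0.10. Entries of a table come from the same animals and are not independent. The map of log2 ratios by compound and table shows these values, and the plot of ratios by class shows the narrow band of the glycine conjugates.

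**Figure D1:**
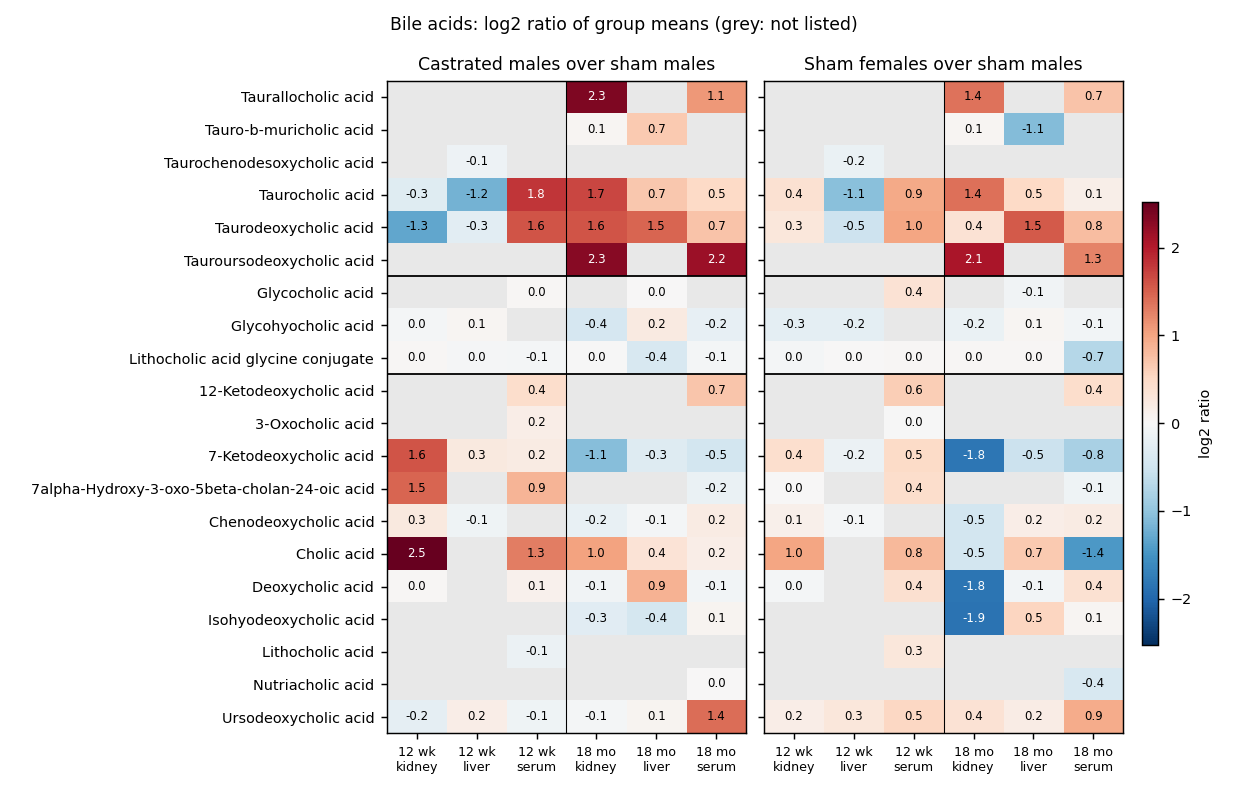
Log2 ratio of group means for each bile acid (rows, with taurine conjugates, glycine conjugates and free acids in separate blocks) in each table (columns), for castrated males over sham males (left) and sham females over sham males (right). Red is higher and blue lower than sham males, and grey marks compounds that the table does not list. Cholic acid in 12-week kidney has the highest castration value, 2.53.

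**Figure D2:**
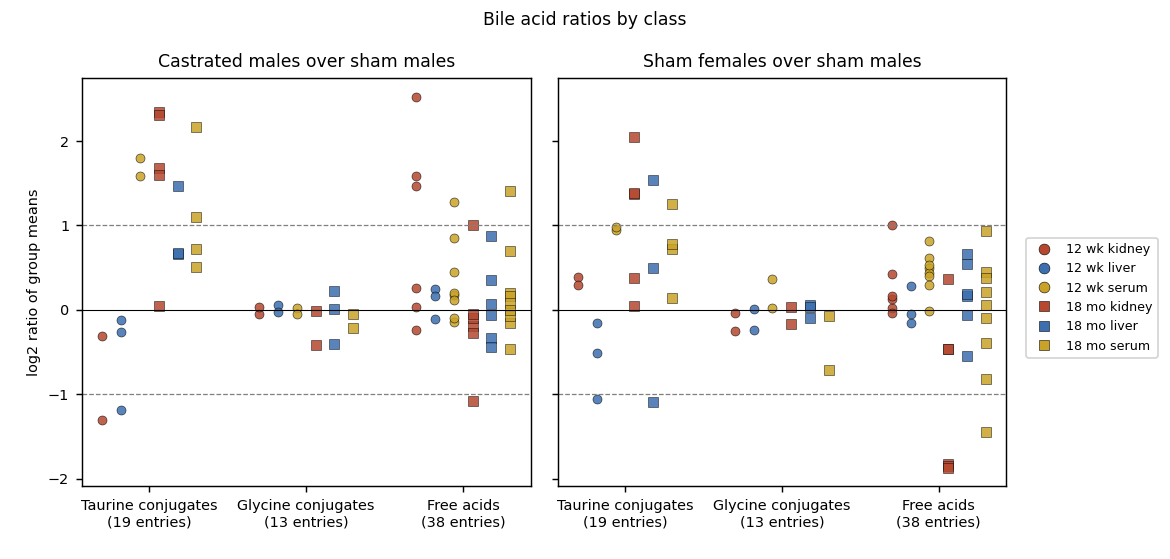
Log2 ratios of group means by class of bile acid, with 1 point per compound and table, circles for 12 weeks and squares for 18 months, and colours for tissue. Dashed lines mark the 2-fold limit. The 13 glycine entries lie between the dashed lines in both comparisons.

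In kidney of 12-week castrated males, 5 of 6 free acids stood higher and both taurine conjugates lower than in sham males. Of all 723 compounds, 397 were higher and 326 lower. Cholic acid, the main trihydroxy primary bile acid, had means of 0.0702 in sham males, 0.404 after castration and 0.141 in sham females. The castrated male mean stood above both others, 5.76 times that of sham males, and only 1 of the 723 compounds of this table had a larger ratio. 7-Ketodeoxycholic acid, a bacterial oxidation product of cholic acid, had means of 0.0159, 0.0476 and 0.0213 in the same order. Those of 7alpha-Hydroxy-3-oxo-5beta-cholan-24-oic acid, an oxo acid, were 0.0216, 0.0599 and 0.0219. For both oxo acids the castrated males were the high group, at 3.0 and 2.77 times the sham male mean, while females lay near sham males. Both rank in the lowest 25% of this table by level.

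Taurodeoxycholic acid, the taurine conjugate of deoxycholic acid, went the other way in these kidneys, with 0.225 in sham males, 0.0911 after castration and 0.275 in females. Castrated males were the low group, at 0.404 times sham males. Taurocholic acid, the taurine conjugate of cholic acid, had means of 1.79, 1.44 and 2.34, so castrated males were lowest again, but within the limit. Deoxycholic acid itself was at 0.362, 0.371 and 0.352, and chenodeoxycholic acid, another primary bile acid, at 1.15, 1.37 and 1.26. In all, 3 of 10 bile acids were past the limit upward, where 4.43% of all compounds were, and 1 downward, where 5.12% were, or 9.54% in either direction. The median log2 ratio was 0.86 for the 6 free and -0.18 for the 4 conjugated acids, against 0.030 for all compounds. Without the lowest 25% of compounds by level the free median was 0.15.

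In 12-week liver, taurocholic acid was the only bile acid past the limit after castration. Its means were 0.0339 in sham males, 0.0149 after castration and 0.0162 in females, so sham males stood above both other arms, and castrated males were at 0.438 times their mean. The other taurine conjugates were also highest in sham males. Taurodeoxycholic acid had 0.776, 0.649 and 0.543 and taurochenodesoxycholic acid 0.398, 0.366 and 0.357. The 3 free acids of this table, chenodeoxycholic, ursodeoxycholic and 7-Ketodeoxycholic acid, had log2 ratios between -0.10 and 0.25. Past the limit downward were 1 of 8 bile acids and 6.51% of all compounds, and upward 0 bile acids and 3.53% of compounds, or 10.0% in either direction. Cholic acid is not among the named compounds of this table.

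In 12-week serum the taurine conjugates were higher in castrated than in sham males. Values of this table are given here multiplied by 1000000. Taurocholic acid had means of 11.2 in sham males, 39.1 after castration and 21.6 in females, and taurodeoxycholic acid 4.38, 13.2 and 8.68. Castrated males were the high group for both, at 3.49 and 3.01 times sham males, with females in between. Cholic acid was at 23.8, 57.9 and 41.9, again with castrated males highest, at 2.43 times sham males. Glycocholic acid, the glycine conjugate of cholic acid, was level between the male arms, at 35.4 and 35.9, with 45.7 in females. Deoxycholic acid had 32.5, 35.2 and 42.8, and lithocholic acid, a secondary monohydroxy acid, 1.54, 1.39 and 1.89. In both cases females were highest and the male arms lay close together. Past the limit upward were 3 of 12 bile acids, against 8.76% of all compounds, and downward 0, against 4.01%, or 12.8% in either direction. Taurocholic acid thus had opposite directions in serum and liver at this age. The same table lists bilirubin, a bile pigment, with means of 68.7 in sham males, 28 after castration and 1.61 in females. Other tables differed: bilirubin was highest in females in 12-week kidney and liver, and had 6.44, 3.18 and 3.37 in 18-month serum. Its part in the bile acid differences was not tested.

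At 18 months the kidney of castrated males held more of 4 of its 5 taurine conjugates. Taurocholic acid had means of 0.832 in sham males, 2.67 after castration and 2.17 in females. Tauroursodeoxycholic acid, a hydrophilic bile acid conjugate, had 0.0424, 0.210 and 0.176. Sham males were the low group for both, and castrated males stood at 3.21 and 4.95 times their mean. Taurodeoxycholic acid was at 0.0656, 0.198 and 0.0849, and here females lay near sham males. Taurallocholic acid, an isomer of taurocholic acid with a flat ring junction, had 0.00532, 0.0271 and 0.0138, a castration ratio of 5.10 at a low level. Tauro-b-muricholic acid, a conjugate of the 6-hydroxylated primary acid typical of mice, did not follow the other taurine conjugates, at 0.406, 0.420 and 0.420.

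Free acids of the 18-month kidney divided by arm in another way. Cholic acid had means of 0.172 in sham males, 0.348 after castration and 0.125 in females. 7-Ketodeoxycholic acid had 0.0127, 0.00603 and 0.00360, so sham males were highest, and castrated males stood at 0.474 times their mean, the reverse of the 12-week kidney. At both ages this acid ranks in the lowest 25% of the kidney table by level. Deoxycholic acid was at 0.884 and 0.827 in the male arms and at 0.245 in females, and isohyodeoxycholic acid, a secondary dihydroxy acid, at 4.76, 3.92 and 1.30. Both male arms were high for these secondary acids and castrated males lay near sham males. Past the limit after castration were 5 of 13 bile acids upward, against 7.11% of compounds, and 1 downward, against 5.69%, or 12.8% in either direction. Median log2 ratios were 1.60 for the 7 conjugated and -0.15 for the 6 free acids, against 0.032 for all compounds. The conjugated median was 0.82 without the lowest 25% by level, which drops taurallocholic acid.

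In 18-month liver taurodeoxycholic acid was the bile acid past the limit, with 7.58 in sham males, 21.0 after castration and 22.1 in females. Sham males were low and the other arms close to each other, at 2.78 and 2.91 times sham males. Taurocholic acid had 25.9, 41.5 and 36.6, and cholic acid 0.439, 0.560 and 0.695, all with sham males lowest but within the limit. Tauro-b-muricholic acid separated castrated males from females, with 0.547 in sham males, 0.864 after castration and 0.256 in females. Deoxycholic acid was highest in castrated males, at 0.0669 against 0.0364 in sham males and 0.0348 in females. Past the limit after castration were 1 of 12 bile acids upward and 0 downward, against 7.13% and 3.35% of all compounds, or 10.5% in either direction, a share of bile acids close to the background.

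In 18-month serum the ursodeoxycholic pair had the highest castration ratios of the 15 bile acids. Tauroursodeoxycholic acid had 0.723 in sham males, 3.25 after castration and 1.73 in females, and free ursodeoxycholic acid 0.418, 1.11 and 0.797. Castrated males were highest and sham males lowest for both, with castration ratios of 4.49 and 2.67. Taurallocholic acid was at 0.0383, 0.0818 and 0.0629 in the same order of arms. Taurocholic acid had 2.96, 4.20 and 3.27, a castration ratio of 1.42, where the 12-week ratio was 3.49. Cholic acid was similar in the male arms, at 2.07 and 2.32, and low in females at 0.763. Past the limit after castration were 3 of 15 bile acids upward, against 9.68% of compounds, and 0 downward, against 5.65%, or 15.3% in either direction. The ages were processed separately and ratios at the 2 ages were not tested against each other.

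Between sham females and sham males, differences in 12-week tissues were mostly small. In kidney, cholic acid was past the limit at 2.0 times the sham male mean, 1 of 10 bile acids upward and 0 downward, against 7.19% and 6.22% of compounds, or 13.4% in either direction. With ratios centred on the median compound the count was 0. In liver taurocholic acid was past it at 0.479 times, 1 of 8 downward and 0 upward, against 7.87% and 4.21%, or 12.1% in either direction. In serum 0 of 12 were past it in either direction, against 11.2% upward and 7.22% downward, or 18.4% in all. Even so, 11 of the 12 serum bile acids were higher in females, where 844 of all 1495 compounds were. Their median log2 ratio was 0.46, against 0.076 for all compounds. Taurodeoxycholic and taurocholic acid came nearest the limit, at 1.98 and 1.93 times.

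At 18 months, 3 of 5 taurine conjugates in female kidneys were past the limit upward and 3 of 6 free acids downward. Tauroursodeoxycholic acid stood at 4.15 times, taurocholic acid at 2.61 and taurallocholic acid at 2.60 times the sham male mean, while isohyodeoxycholic acid was at 0.273, deoxycholic acid at 0.278 and 7-Ketodeoxycholic acid at 0.283 times. Among the others, taurodeoxycholic acid was at 1.29, tauro-b-muricholic acid at 1.04 and free ursodeoxycholic acid at 1.29 times sham males. That made 3 of 13 upward and 3 downward, against 5.58% and 13.5% of all compounds, or 19.1% in either direction. Of those past the limit, taurallocholic and 7-Ketodeoxycholic acid rank in the lowest 25% of this table by level. Median log2 ratios of free and conjugated acids were -1.14 and 0.37, against -0.086 for all compounds, and the free median was -0.46 without the lowest 25% by level. In liver 1 of 12 was past the limit upward, taurodeoxycholic acid, and 1 downward, tauro-b-muricholic acid at 0.468 times, against 6.81% and 6.71%, or 13.5% in either direction. In serum 1 of 15 was past it upward, tauroursodeoxycholic acid at 2.39 times, and 1 downward, cholic acid at 0.368 times, against 8.18% and 13.2%, or 21.4% in either direction. The lithocholic acid glycine conjugate, with sex log2 ratios between -0.04 and 0.03 in the other 5 tables, was lower in female serum at this age, at 0.831 against 1.36 in sham males.

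Bile acids that differ by a single structural change were then compared within each table as the ratio of their relative abundances. There were 12 such pairs of compounds, each taken in every table that lists both, which made 41 comparisons. With 1 mean per arm, neither a p-value nor an interval can be given for any of these differences, so a small difference does not show that the pair behaved alike. Addition of taurine could be followed in 13 comparisons, most of them taurocholic with cholic acid or taurodeoxycholic with deoxycholic acid, repeated across tables. The conjugate gained on its free acid after castration in 10 of them, and log2 differences ranged from -2.84 to 2.36. All 3 comparisons in which it lost came from 12-week tissue. In 12-week kidney the ratio of taurocholic to cholic acid was 25.5 in sham males, 3.56 after castration and 16.6 in females, and that of taurodeoxycholic to deoxycholic acid was 0.622, 0.245 and 0.783. In 12-week liver taurochenodesoxycholic to chenodeoxycholic acid was nearly level, at 0.672, 0.664 and 0.625.

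In 18-month kidney the same ratios ran upward from sham males to castrated males to females, with 4.83, 7.70 and 17.4 for taurocholic to cholic acid and 0.0743, 0.240 and 0.346 for taurodeoxycholic to deoxycholic acid. Tauroursodeoxycholic to ursodeoxycholic acid was 0.0783 in sham males, 0.403 after castration and 0.252 in females. In 18-month liver taurodeoxycholic to deoxycholic acid was 208, 315 and 634, while taurocholic to cholic acid was 59.1, 74.0 and 52.7, with females lowest. Taurine and glycine conjugates of cholic acid could be compared in 2 tables. The ratio of taurocholic to glycocholic acid was 0.316, 1.09 and 0.473 in 12-week serum, and after castration it was 1.58 times the sham male ratio in 18-month liver. The plot of conjugate to free acid ratios shows the 12-week kidney as the table in which castrated males lie below sham males.

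**Figure D3:**
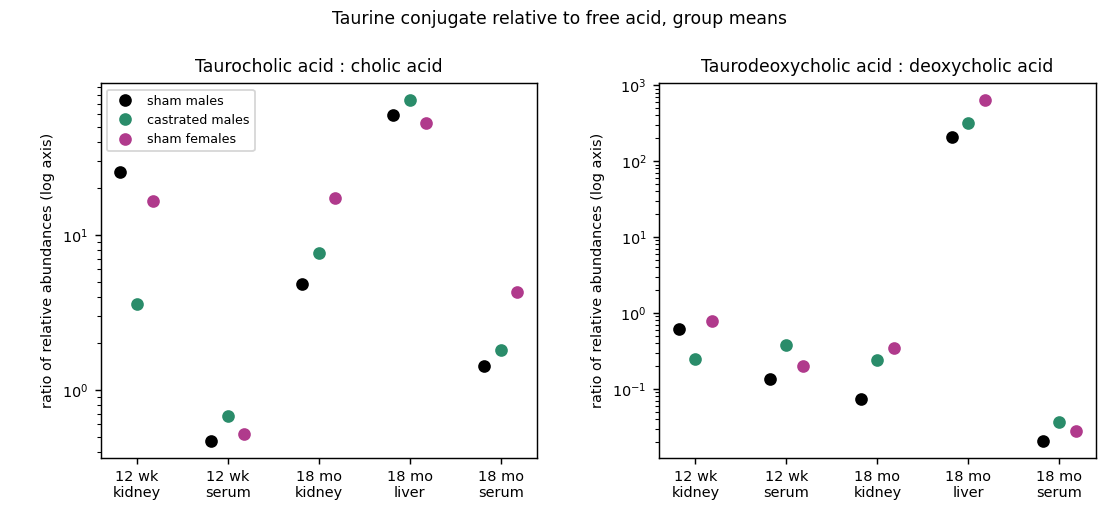
Ratio of relative abundances of taurocholic to cholic acid (left) and taurodeoxycholic to deoxycholic acid (right) in each table that lists both, on log axes, with 1 point per arm (sham males black, castrated males green, sham females magenta). In 12-week kidney castrated males are the lowest arm in both panels, at 3.56 and 0.245, and in 18-month kidney sham males are lowest, at 4.83 and 0.0743.

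Changes on the ring were followed in the other pairs. Deoxycholic acid, which is cholic acid without its 7-hydroxyl, lost ground against cholic acid after castration in 4 of 5 tables, with log2 differences from -2.49 to 0.52. For 7-Ketodeoxycholic acid, in which that hydroxyl is oxidised, the loss against cholic acid was seen in 5 of 5 tables, from -2.09 to -0.63. In females it was seen in 4 of 5, from -1.36 to 0.62. Both castration counts share cholic acid, which was itself higher after castration in all 5 tables, so they are not separate findings. 7-Ketodeoxycholic acid itself was higher after castration in 12-week kidney, liver and serum, at 3.0, 1.19 and 1.15 times sham males. It was lower in the 18-month tables. In kidney at both ages and in 18-month liver it is among the lowest compounds by level. With the taurine kept, removal of the same hydroxyl had no common direction: taurodeoxycholic acid gained on taurocholic acid after castration in 3 of 6 tables and lost in 3, from -0.99 to 0.93. It gained in the liver at both ages, by log2 differences of 0.93 and 0.80. Ursodeoxycholic acid, which differs from chenodeoxycholic acid in the orientation of the 7-hydroxyl, gained on it after castration in 4 of 5 tables, from -0.49 to 1.21, and in females in 5 of 5, from 0.026 to 0.83. Tables of an age may come from the same animals, so these counts are not independent repeats.

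Substrates and other sterols named in the tables were taken as context. Taurine, the amino acid used for conjugation, had means of 5.70 in sham males, 8.91 after castration and 10.0 in females in 12-week liver, where taurine conjugates were highest in sham males. In 12-week kidney it was at 18.8, 25.4 and 21.8. In 18-month liver taurine was at 40.1, 39.9 and 31.2, and in 18-month serum at 5.79, 3.51 and 3.14, with sham males highest. Glycine was lower in female than in sham male kidney, at 0.0664 against 0.143 at 12 weeks and 0.0159 against 0.0317 at 18 months. Hypotaurine, the precursor of taurine, was at 1.46 in sham male kidney at 12 weeks, 0.415 after castration and 0.443 in females. Cholesterol, the source of bile acids, had 25.7, 14.4 and 2.60 in 18-month serum, with sham males highest and females lowest, and 0.306, 0.164 and 0.151 in 18-month liver. Elsewhere females were highest, with 16.5, 21.2 and 25.9 in 12-week serum, 0.237, 0.291 and 0.351 in 18-month kidney, and 1.82, 1.29 and 2.24 in 12-week kidney.

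RNA of kidney and liver gives the genes that make, conjugate and carry bile acids. In RNA the sham groups held 3 libraries each, and castrated males 6 per tissue at 12 weeks and 5 at 18 months, deposited as group means in FPKM at 12 weeks and, at 18 months, in a unit without a name. The words "rose" and "fell" mean an adjusted p under 0.05 in the authors' deposited tables, from Cuffdiff-style tests at 12 weeks and DESeq2 at 18 months. All 52 genes of the list were measured. At 12 weeks the authors listed each gene for a single comparison, so counts are lower bounds. The 8 kidney markers had means from 16.7 FPKM upward in 12-week kidney and from 6.82 upward in 18-month kidney, and all were below 1 in liver. Of 7 liver markers, Alb (albumin) was the one at the lowest value, 0.01, in liver, in all arms at 12 weeks. Alb had 8.78 FPKM in sham male kidney at that age, so 0.01 cannot be read as absence. Marker lists of other cells differed between the arms. At 18 months the summed means of 6 bile duct markers, mostly Spp1, were 42.1 in sham males, 81.2 after castration and 86 in females in liver. Sox9, 1 of the 6, was highest in sham males there, with 1.55, 1.05 and 1.25. The kidney's own epithelium also expresses Spp1, Krt7 and Epcam, so this list marks no other cell there. Those of 3 macrophage markers in 18-month liver were 11.2, 17.3 and 51.9. Those of 3 blood markers were highest in castrated males at 18 months, with 584, 845 and 492 in liver and 1966, 3033 and 1572 in kidney. In that liver Alas2, 1 of the 3, went the other way, with 70.1, 20.8 and 7.78. The sum of liver markers in 18-month kidney was also highest in that arm, with 201, 276 and 87.8. Ttr, the largest of them in sham males, went the other way and was lowest in castrated males. The other liver markers were each highest in castrated males. Both fat markers were below 1 in all groups. Their part in the gene results was not tested, and in bulk tissue fewer cells of a type and less RNA per cell cannot be told apart.

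In liver, 1 synthesis gene was called after castration at both ages. This was Cyp7b1, the oxysterol hydroxylase of the alternative synthesis pathway (mm10 chromosome 3, 18071950 to 18243338), which fell. Its means in sham males, castrated males and females were 92.6, 15.8 and 8.71 FPKM at 12 weeks and 123, 16.8 and 12.8 at 18 months. The authors' deposited table gives a log2 fold of -2.98 at 18 months, with a standard error of 0.385 implied by its p-value and an adjusted p = 2.75e-12 by DESeq2. Cyp7a1, the rate-limiting enzyme of the classical pathway, had means of 30.8, 32.7 and 34.9 FPKM at 12 weeks and 16.1, 19.0 and 79.2 at 18 months, where it was higher in females (log2 fold 2.10, implied standard error 0.306, adjusted p = 9.58e-10 by DESeq2 in the authors' deposited table). Cyp8b1, the sterol 12-hydroxylase needed for cholic acid, had 136, 19.3 and 42.4 FPKM at 12 weeks, where it was listed for neither comparison. At 18 months it had 177, 95.7 and 108, with an adjusted p = 0.521 for castration. Cyp27a1, the sterol 27-hydroxylase that starts the alternative pathway, had 407, 342 and 361 FPKM at 12 weeks, unlisted, and 306, 311 and 312 at 18 months, with an adjusted p = 0.928. Csad, which makes the taurine precursor hypotaurine, fell from 163 to 12.9 FPKM at 12 weeks, with 26.4 in females, and Baat, which joins the amino acid to bile acids, from 176 to 131 FPKM (adjusted p = 0.000856 and 0.045 in the authors' deposited Cuffdiff-style table). At 18 months Csad had 181, 92.6 and 115 (adjusted p = 0.141 for castration by the authors' DESeq2 test) and Baat 161, 163 and 149. Scp2, a sterol carrier and side chain thiolase, fell from 1413 to 541 FPKM at 12 weeks, and had 1994, 1506 and 871 at 18 months, with an adjusted p = 0.571 for castration.

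Transport genes of the liver moved too. Slc10a1, the main sodium-dependent uptake carrier for conjugated bile acids, fell at 12 weeks from 331 to 221 FPKM, and Abcb11, the bile salt export pump of the canalicular membrane, from 411 to 226 FPKM, with adjusted p = 0.00846 and 0.0136 in the authors' deposited table. Female means were 294 and 383 FPKM. At 18 months Slc10a1 was at 412, 358 and 478 and Abcb11 at 115, 126 and 108, with adjusted p of 0.900 and 0.983 for castration by the authors' DESeq2 test. Slco1a1, an organic anion uptake carrier (chromosome 6, 141907282 to 141946962), fell at 18 months from 105 to 0.458, with 0.12 in females, and its relative Slco1a4 rose from 13.3 to 36.2, with 53.0 in females. Nr1h4, the bile acid receptor FXR, rose from 84.5 to 126 FPKM at 12 weeks, and had 87.6, 114 and 79.5 at 18 months, with an adjusted p = 0.949 for castration. Of the 8 bile acid and steroid sulfotransferases of the Sult2a family, 5 rose at 18 months. Sult2a8, the member with the highest sham male mean, went the other way. It fell from 581 to 247 FPKM after castration at 12 weeks, and had 515, 274 and 170 at 18 months, with an adjusted p of 0.0901 for castration and 4.54e-12 for females. Sult2a1 went from 0.17 to 394, with 1207 in females. At 12 weeks sham males were at the lowest value, 0.01, and its castrated male mean was 0.0784 FPKM against 147 in females. These genes are near copies, so how reads were divided among them is uncertain. Over the whole list 9 genes rose and 10 fell after castration at 12 weeks, of 27 listed, where 12.1% and 12.8% of listed genes did, 24.9% in all. At 18 months 7 rose and 2 fell of 50 tested, where 1.08% and 1.01% did, 2.09% in all, and the list median log2 difference was 0.025 against 0.047 for all genes. In females 8 were higher and 6 lower of 50 at 18 months, where 5.87% and 3.91% were, 9.78% in all. At 12 weeks these were 3 and 2 of 5 listed for sex, where the listing holds only called genes (100%), 47.1% of them higher and 52.9% lower.

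In kidney the carriers that move bile acids across the proximal tubule were divided. Slc10a2, the apical sodium-dependent carrier that reclaims filtered bile acids, had means of 24.1, 29.6 and 32.5 at 18 months in sham males, castrated males and females, with an adjusted p = 0.842 for castration by the authors' DESeq2 test. Slc51a, a subunit of the basolateral exporter, fell at 18 months from 83.6 to 43.1, with 36.9 in females, and its partner Slc51b had 42.6, 56.8 and 54.6 without a call. Abcc3, an exporter of conjugated organic anions, rose from 0.967 to 8.13 and was at 40.3 in females, with a log2 fold of 2.95 for castration and an implied standard error of 0.188 in the authors' deposited table. Abcc4, a related exporter, rose from 18.9 to 43.5, with 33.3 in females. Slco1a1 fell from 64.8 to 0.044. Baat was low in kidney but rose from 1.24 to 5.40, with 4.84 in females. Cyp7b1 fell from 52.4 to 3.60 and Amacr, a racemase of bile acid side chains, from 208 to 77.5. In all 5 genes rose and 13 fell of 50 tested at 18 months, where 9.56% and 13.1% of all genes did, 22.7% together. At 12 weeks 5 rose and 4 fell of 20 listed, where 22.6% and 26.0% did, 48.6% together. In females 4 were higher and 11 lower of 49 at 18 months, where 7.91% and 8.90% were, 16.8% together, and 2 and 4 of 7 listed at 12 weeks, where 41.8% and 39.7% were, 81.4% together. Genes were not tested against bile acids.

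**Figure D4:**
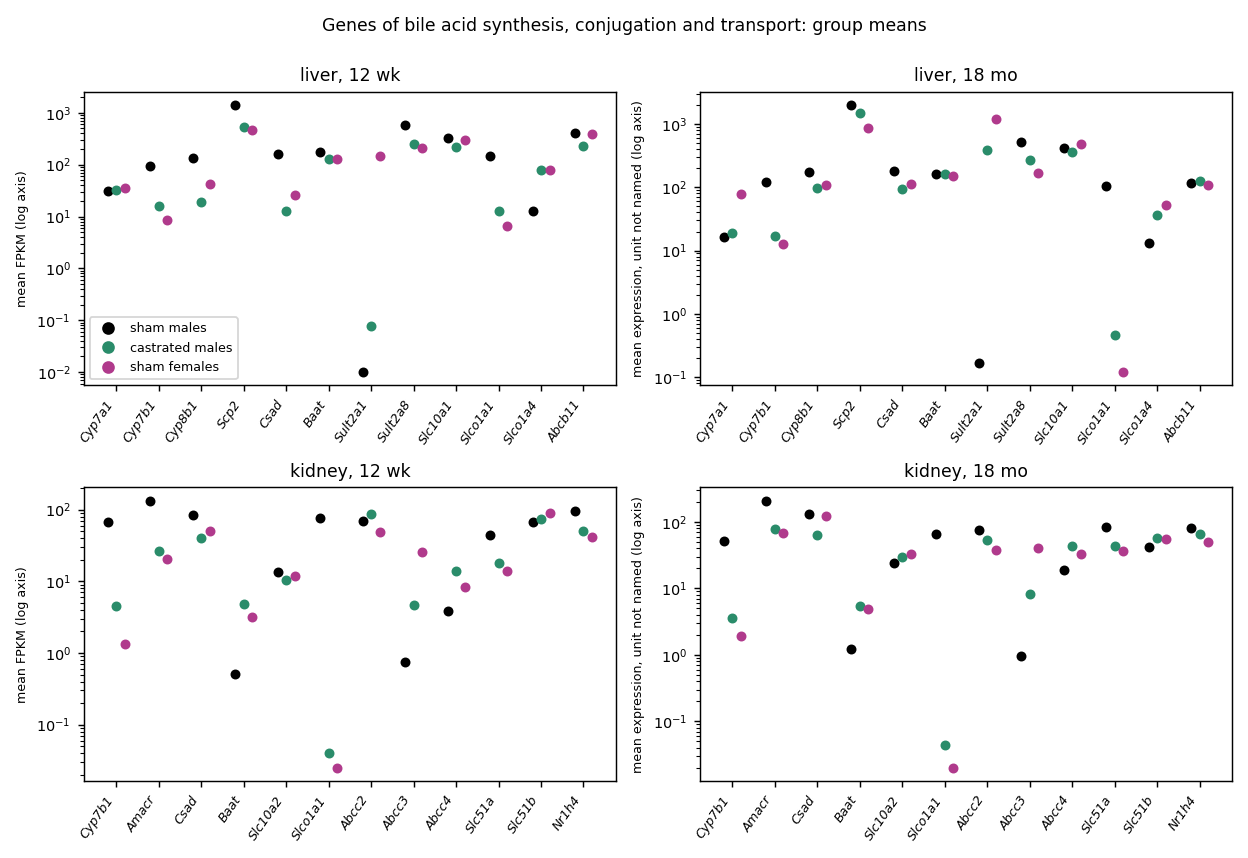
Group means of genes of bile acid synthesis, conjugation and transport in liver (top) and kidney (bottom) at 12 weeks (left, FPKM) and 18 months (right, unit not named), on log axes, with sham males black, castrated males green and sham females magenta. Cyp7b1 and Slco1a1 are highest in sham males in all 4 panels, and Slc10a2 in kidney shows close values for the 3 arms. Sult2a1 of sham males in 12-week liver is at the lowest value, 0.01.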

How the data were processed

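Untargeted metabolomics covered 3 tissues in 3 arms at 2 ages. The authors deposited a relative abundance signal as 1 mean per arm and compound. Normalization, instrument and animal numbers are stated in neither labels nor headers, and 2 column headers end in an unexplained number, 8 for 18-month kidney of sham females and 6 for 18-month liver of castrated males. Columns were assigned to arms by their headers, since their order differs between tables. RNA was processed on build mm10, and the tools named are Cufflinks, HISAT2 and SAMtools, per the submitters' processing notes. The authors deposited FPKM means for 12-week RNA (per the labels) and an unnamed expression signal for 18-month RNA, with 0.01 as the lowest value. A gene at 0.01 cannot be read as absent, as Alb in 12-week liver shows. Per the file headers, the authors' comparison tables hold log2 fold changes, p-values and q-values from a Cuffdiff layout at 12 weeks and from DESeq2 at 18 months. The 18-month folds are signed as sham male over the other arm, which matched the means for all 552 kidney and 633 liver genes with a castration fold of at least 2-fold, and they were turned around here.

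Log2 ratios of arm means over the sham male mean were computed with Python 3.11.15 and pandas 2.3.3, without a pseudocount. A run on simulated data with known folds checked the calculation only, not the spread between animals. Standard errors implied by the authors' table were worked back from each log2 fold and its p-value under a normal distribution, a step added after the data were seen. The limit was 2-fold. Differences of genes are of log2(mean + 1). Depth per library is unknown, since the files hold group means. Genes named passed the authors' test at an adjusted p under 0.05 with a group mean of at least 5, or did not pass and are given as values, chosen for their role. Taurallocholic acid was counted as a taurine conjugate, although the name pattern first written for conjugates missed it, and the pattern was widened after the data were seen. Gene positions come from GENCODE vM21 for mm10. Members, lists and comparisons were chosen with earlier results of these data known. Nothing shows whether libraries were separate animals, so the authors' p-values measure the spread between libraries.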

Additional observations from a re-analysis of the deposited data

How the results depend on the processing

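Each result was recomputed with log2 ratios centred on the median compound, with 1 entry per name, with a limit of 1.5-fold, without the lowest 25% of compounds by level, and, chosen after seeing the data, with the first name pattern for conjugates. Gene counts were recomputed at an adjusted p under 0.01 and with a 2-fold limit on the means. No bile acid name occurs more than once within a table, so the 42 results recomputed with 1 entry per name could not change. When centred, 41 of 42 were the same, the exception being females in 12-week kidney, where 1 bile acid past the limit became 0. Without the lowest 25%, bile acids past the limit after castration in 12-week kidney went from 4 to 2 and free acids over all tables from 7 to 4. The castration median of free acids in 12-week kidney was then 0.15, that of conjugated acids in 18-month kidney 0.82, and the female median of free acids in 18-month kidney -0.46. The first name pattern gave the same 0.82 and -0.46. At 1.5-fold, counts past the limit became 4 for females in 12-week serum, 4 for castration in 18-month liver, 5 for castration in 18-month serum and 7 for females in 18-month serum, and for females in all 6 tissues and ages together 11 taurine, 1 glycine and 10 free entries. At 2-fold on the means, bile acid genes numbered 10 for castration and 14 for females in 12-week liver, and 8 for castration and 7 for females in 18-month kidney. The cause of these changes was not tested beyond the construction of each alternative.

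No paired analysis was possible because the files hold group means and no values per sample, and for the same reason leaving out single replicates was not run. The precision of the bile acid means is unknown.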

Other observations

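Within a table, the ratio of a pair of bile acids does not depend on a common scale, though it depends on how each ion responds. For some pairs the ratio differed widely between the ages. In liver of sham males, the ratio of taurodeoxycholic to taurocholic acid was 22.9 at 12 weeks and 0.292 at 18 months. In castrated males it was 43.7 and 0.508, and in females 33.4 and 0.603. In kidney the same ratio was 0.126 and 0.0789 in sham males. Age and the separate processing of the tables cannot be told apart.

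Sterols named in single tables had very low means in an arm, and no fold is given for them. In 12-week serum, 7a,12a-Dihydroxy-5a-cholestan-3-one was at 0.00301 in sham males, 0.299 after castration and 1.13 in females, again multiplied by 1000000. In 18-month serum, 3a,7a-Dihydroxy-5b-cholestane was at 0.0775, 0.0927 and 0.00105 in the same order. Cholesterol sulfate was higher in females than in sham males in all 5 tables that list it, with the largest ratio, 2.65, in 18-month liver, where means were 3.93, 6.53 and 10.4.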
